A study of Homo sapiens with 8 samples.

Results

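The tubulin genes examined were 10 of the 23228 genes listed by symbol. They were chosen by name, as 4 alpha tubulins (TUBA1A, TUBA1B, TUBA1C and TUBA4A), 5 beta tubulins (TUBB, TUBB2A, TUBB2B, TUBB3 and TUBB6) and the gamma tubulin TUBG1. In BT-549 cells, vorinostat raised the mRNA of 4 of them (TUBA1A, TUBA4A, TUBB2A and TUBB3) and lowered that of 3 (TUBB, TUBA1B and TUBB6), so that the isotype make-up of alpha and beta tubulin mRNA shifted. EC359 lowered TUBB3 both in vehicle-treated and in vorinostat-treated cells, although both calls depended on single libraries.

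Alpha and beta tubulin form the heterodimers that polymerise into microtubules, and gamma tubulin sits in the ring complexes from which microtubules grow. Human cells carry several alpha and beta genes whose protein products, called isotypes, are nearly alike and differ mainly in their acidic tails. TUBB and TUBA1B are expressed in most tissues, while TUBB3 is best known from neurons and has been studied in tumours for its association with resistance to drugs that bind microtubules.

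RNA-seq was performed on BT-549, an established triple negative breast cancer cell line, in 4 groups of 2 libraries. Cells received the vehicle DMSO, the LIFR inhibitor EC359 (100 nM), the histone deacetylase inhibitor vorinostat (10 µM), or EC359 and vorinostat at these doses (the combination), for 24 h. All groups were the same unmodified line in the same medium, and a single line cannot stand for other tumours. The sources say that libraries were run in duplicate, without saying whether they came from separate cultures. The spread between libraries that p-values rest on may therefore be technical. It was estimated for each gene over all 8 libraries together, moderated by that of other genes. Such a shared spread may understate that of the EC359 libraries, given next.

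The libraries held 19069450 to 24759041 counts on genes. The SD over genes of the log2 difference between libraries of a group was 0.312 for vorinostat, 0.349 for vehicle, 0.448 for the combination and 0.563 for EC359, whose libraries stood furthest apart. Markers of the line were as labelled, with VIM at 2056 to 9442 normalized CPM (counts scaled to a common library size), ESR1 at 1.02 CPM or less and PGR at 0.0511 CPM or less, while ERBB2 ranged from 12 to 102 CPM. The epithelial genes CDH1, EPCAM, KRT8 and KRT18 reached at most 9.67 CPM, with values by group given with the other lists. The blood and endothelial genes PTPRC, CD3E, CD14, PECAM1 and VWF reached at most 2.15 CPM.

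The sequences upstream of the 7 members that changed under vorinostat are shown because these genes moved in opposite directions. Each is the 120 bases before the transcription start, from RefSeq, written 5′ to 3′ on the gene's strand with its position on GRCh37, and capitals mark matches, on either strand, to the TATA box core TATAA, to CCAAT of the box named after it, to the GC box GGGCGG or to the cyclic AMP response element TGACGTCA. The first 4 genes rose and the last 3 fell.
TUBA1A, chr12:49582864-49582983, minus strand: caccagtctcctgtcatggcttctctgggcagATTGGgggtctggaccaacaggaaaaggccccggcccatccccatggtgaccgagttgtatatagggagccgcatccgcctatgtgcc
TUBA4A, chr2:220118641-220118760, minus strand: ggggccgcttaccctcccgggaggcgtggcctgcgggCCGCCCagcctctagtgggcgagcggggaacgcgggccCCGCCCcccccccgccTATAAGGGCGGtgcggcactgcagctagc
TUBB2A, chr6:3157779-3157898, minus strand: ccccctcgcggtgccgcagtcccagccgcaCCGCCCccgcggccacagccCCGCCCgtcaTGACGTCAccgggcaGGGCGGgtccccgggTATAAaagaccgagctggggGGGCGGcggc
TUBB3, chr16:89989630-89989749, plus strand: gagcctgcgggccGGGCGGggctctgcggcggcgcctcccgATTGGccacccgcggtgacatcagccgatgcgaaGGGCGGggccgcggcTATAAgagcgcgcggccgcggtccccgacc
TUBA1B, chr12:49525179-49525298, minus strand: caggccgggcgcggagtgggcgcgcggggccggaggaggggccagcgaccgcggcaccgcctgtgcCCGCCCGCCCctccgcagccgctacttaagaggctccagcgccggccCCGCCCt
TUBB, chr6:30688009-30688128, plus strand: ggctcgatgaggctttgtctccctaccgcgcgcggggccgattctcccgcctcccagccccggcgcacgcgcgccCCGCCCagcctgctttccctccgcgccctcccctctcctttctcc
TUBB6, chr18:12308120-12308239, plus strand: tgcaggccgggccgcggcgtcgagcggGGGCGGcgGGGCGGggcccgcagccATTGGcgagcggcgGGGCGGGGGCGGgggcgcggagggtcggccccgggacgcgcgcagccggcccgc

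These motifs were searched in the 250 bases before the start, and were chosen after earlier results were known. Neighbouring matches can overlap, as the GGGCGG matches on the opposite strand do in TUBA1B. TATAA lay within the windows of TUBA4A, TUBB2A and TUBB3, at position -29 or -30 from the start, and in none of the 3 genes that fell. It was also found in TUBA1C, which did not pass the test, and not in TUBA1A, which rose. The TUBA1A window does hold the similar run tatata at position -30, which the search for the exact letters TATAA did not count. Near matches were not searched for in the other genes or over all windows, so this run cannot be compared with them. Of 2 beta tubulins outside the members that also rose, TUBB4B held TATAA at -27 and TUBB4A did not hold it. Of 35116 RefSeq windows of this length, 18.9% held TATAA, 32% held CCAAT, 42.6% held GGGCGG and 1.65% held TGACGTCA. TGACGTCA was found only in TUBB2A among the 10 members. A match is a run of letters and not evidence that a factor binds there.

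The beta tubulin TUBB, on chromosome 6 (30688129 to 30693199), was the most abundant member. It was at 2571 and 2447 CPM in vehicle, 2001 and 1934 CPM in EC359, 1167 and 1138 CPM in vorinostat, and 908 and 1018 CPM in the combination. The 4 groups did not overlap and lay in that order. TUBB was 2.18-fold lower in vorinostat than in vehicle (log2 fold change -1.12, SE 0.08, adjusted p = 4.1e-06, quasi-likelihood test of edgeR, Benjamini-Hochberg adjusted, as for all adjusted p-values that follow) and 2.61-fold lower in the combination (log2 -1.38, SE 0.08, adjusted p = 9.3e-07).

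TUBB3, the class III beta tubulin on chromosome 16 (89989750 to 90002505), was at 365 and 391 CPM in vehicle and at 1218 and 1205 CPM in vorinostat. It was at 187 and 230 CPM in EC359 and at 764 and 731 CPM in the combination. The lowest group was EC359 and the highest vorinostat, with no overlap among the 4 groups. TUBB3 rose 3.2-fold under vorinostat (log2 1.68, SE 0.11, adjusted p = 1.9e-06) and 1.98-fold under the combination (log2 0.98, SE 0.11, adjusted p = 3.3e-05), both against vehicle.

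TUBB2A, a beta tubulin that is abundant in brain (chromosome 6, 3153900 to 3157778), was at 20.3 and 25.1 CPM in vehicle and 16.6 and 18.3 CPM in EC359. It was at 83.9 and 85.5 CPM in vorinostat and 97.5 and 91.1 CPM in the combination, well above the other groups. The rise was 3.73-fold under vorinostat (log2 1.90, SE 0.12, adjusted p = 2.2e-06) and 4.15-fold under the combination (log2 2.05, SE 0.13, adjusted p = 1e-06).

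TUBB6, the class V beta tubulin (chromosome 18, 12308240 to 12326615), went the other way. It was at 213 and 207 CPM in vehicle, 201 and 185 CPM in EC359, 102 and 94.8 CPM in vorinostat, and 86.3 and 90.6 CPM in the combination. It fell 2.13-fold under vorinostat (log2 -1.09, SE 0.09, adjusted p = 8.9e-06) and 2.37-fold under the combination (log2 -1.25, SE 0.09, adjusted p = 3.2e-06). TUBB2B, close in sequence to TUBB2A, had 0 counts in every vehicle and EC359 library and at most 5 counts elsewhere, and did not pass the filter on low counts. The 0 counts allow up to 0.152 CPM in each of those libraries, counting error only.

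Among the alpha tubulins, TUBA1B (chromosome 12, 49521565 to 49525178) was the most abundant in vehicle. It was at 887 and 923 CPM in vehicle, 839 and 778 CPM in EC359, 465 and 456 CPM in vorinostat, and 306 and 314 CPM in the combination. The groups did not overlap. TUBA1B fell 1.96-fold under vorinostat (log2 -0.97, SE 0.08, adjusted p = 7.4e-06) and 2.92-fold under the combination (log2 -1.54, SE 0.08, adjusted p = 4.5e-07).

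TUBA1A, the alpha tubulin known for its role in the developing brain (chromosome 12, 49578578 to 49582863), was at 149 and 142 CPM in vehicle, and at 104 and 74.4 CPM in EC359. It was at 622 and 627 CPM in vorinostat and 380 and 454 CPM in the combination. It rose 4.3-fold under vorinostat (log2 2.10, SE 0.16, adjusted p = 4.5e-06) and 2.87-fold under the combination (log2 1.52, SE 0.15, adjusted p = 2.3e-05).

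TUBA4A (chromosome 2, 220114432 to 220118640) had the largest fold change of the members. It was at 11 and 10.9 CPM in vehicle, 17.2 and 11.6 CPM in EC359, 85.5 and 85.1 CPM in vorinostat, and 77.6 and 96.3 CPM in the combination. The rise was 7.78-fold under vorinostat (log2 2.96, SE 0.19, adjusted p = 1.9e-06) and 7.93-fold under the combination (log2 2.99, SE 0.19, adjusted p = 1.2e-06). Libraries of these last groups overlapped.

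TUBA1C (chromosome 12, 49658865 to 49668383) was at 343 and 417 CPM in vehicle and at 229 and 374 CPM in EC359. It was at 530 and 529 CPM in vorinostat and at 277 and 254 CPM in the combination. The EC359 libraries differed most and overlapped vehicle. Against vehicle, neither the log2 difference of 0.48 (SE 0.20, adjusted p = 0.056) in vorinostat nor that of -0.52 (SE 0.20, adjusted p = 0.04) in the combination passed at 0.01. Both passed in fits of only the 4 libraries compared (log2 0.49, adjusted p = 9.2e-05, and log2 -0.55, adjusted p = 0.00012), and the second also with DESeq2 (adjusted p = 0.0096), so TUBA1C cannot be called unchanged.

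The gamma tubulin TUBG1 (chromosome 17, 40761701 to 40767256) lay between 81.5 and 123 CPM in all 8 libraries and passed no test. Its log2 difference from vehicle was 0.18 under vorinostat (95% interval -0.17 to 0.52) and -0.04 under the combination (95% interval -0.39 to 0.31). These intervals do not cover a 2-fold change.

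**Figure D1:**
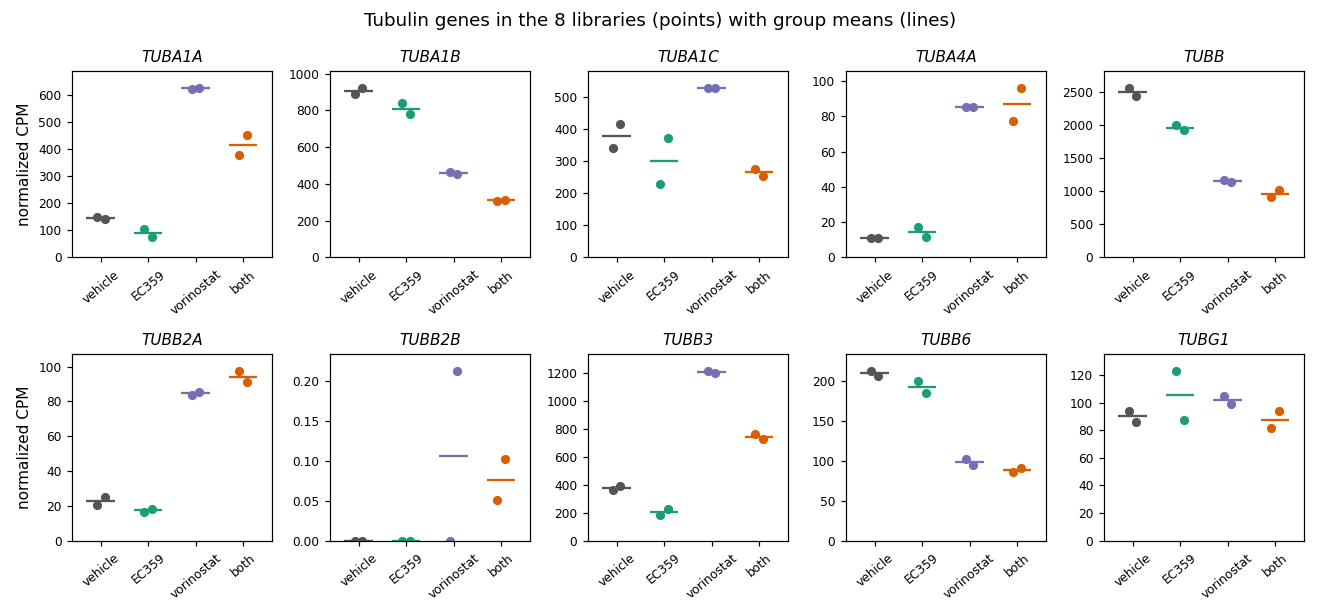
Normalized CPM (linear axes from 0, a separate range per gene) of the 10 tubulin genes in each library, with points for libraries and lines for group means; "both" is the combination. TUBA1A, TUBA4A, TUBB2A and TUBB3 were highest in the libraries with vorinostat, while TUBA1B, TUBB and TUBB6 were lowest there, TUBG1 lay between 81.5 and 123 CPM, and TUBB2B had almost no counts.

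Of the 9 members tested, 4 passed as higher and 3 as lower under vorinostat at an adjusted p under 0.01. Over all 13694 tested genes, 26.2% passed as higher and 25.9% as lower, so that a change in either direction was common under this drug. With an absolute log2 fold change over 1 as well, 4 members were called higher and 2 lower, where 16.8% and 13.3% of all genes were. Under the combination 4 again passed as higher and 3 as lower, against 29.7% and 26.7% of all genes, and 3 were called in each direction, against 19.5% and 15.3%. The 9 members had a median log2 fold change of 0.479 under vorinostat, where that of all genes was 0.030. Under the combination these medians were -0.041 and 0.068. Both comparisons share the vehicle libraries.

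**Figure D2:**
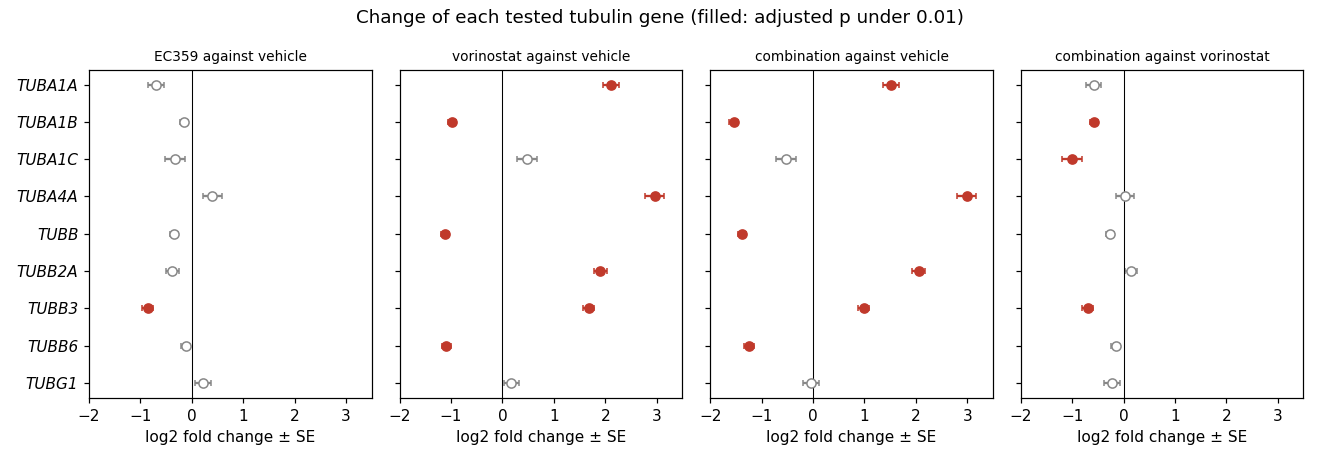
Log2 fold change (x axis, bars are SE) of the 9 tested tubulin genes in 4 comparisons, with filled red points where the adjusted p was under 0.01. Vorinostat and the combination each show 4 genes to the right and 3 to the left that passed, EC359 shows TUBB3, and the combination against vorinostat shows TUBA1B, TUBA1C and TUBB3 to the left.

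The summed level of the 10 members was 4653 and 4649 CPM in vehicle, 3719 and 3693 CPM in EC359, 4379 and 4320 CPM in vorinostat, and 2978 and 3143 CPM in the combination, so it was highest in vehicle. The sums over all listed beta or alpha tubulin genes, non-members included, ordered the groups differently. The beta sum was 4127 and 3987 CPM in vehicle, 4851 and 4746 CPM in vorinostat, 3205 and 3055 CPM in EC359, and 3373 and 3618 CPM in the combination. The alpha sum was 1391 and 1494 CPM in vehicle, 1704 and 1699 CPM in vorinostat, 1192 and 1239 CPM in EC359, and 1042 and 1120 CPM in the combination. Both of these sums were highest in vorinostat and were lower than vehicle in both groups with EC359. For beta tubulin the difference from the members' sum came with the non-members TUBB4B, at 919 and 884 CPM in vehicle and 1816 and 1766 CPM in vorinostat, and TUBB4A, described further on.

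To compare genes with each other, CPM was divided by gene length (the exon union, in kilobases). Reads that aligned to several places were not counted, and lengths were not corrected for this. Levels of genes with more shared sequence, given further on, may be understated, so the order and the shares below may be shifted. In vehicle the order was TUBB (616 ± 21.6 CPM per kb, SD, n = 2), TUBA1B (253 ± 7.26), TUBA1C (85.3 ± 11.8), TUBB6 (53.2 ± 1.12), TUBB3 (51.0 ± 2.54), TUBA1A (38.0 ± 1.32), TUBG1 (20.9 ± 1.30), TUBB2A (7.81 ± 1.19) and TUBA4A (2.97 ± 0.0131). TUBB6 and TUBB3 did not differ beyond their spread. In vorinostat TUBB was still first (283 ± 5.02 CPM per kb), followed by TUBA1A (163 ± 0.947) and TUBB3 (163 ± 1.28), which did not differ, and then TUBA1B (129 ± 1.76). The place of TUBB3 depended on the length used: with the canonical transcript it was at 710 ± 5.58 CPM per kb in vorinostat, above TUBB at 458 ± 8.12.

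In these length-scaled levels, TUBB made up 52.1% ± 0.39 of the beta tubulin level in vehicle (SD, n = 2, as for the other shares), 18.6% ± 0.0104 in vorinostat and 21.3% ± 0.533 in the combination. TUBB4B, a widely expressed beta tubulin that is not a member and was listed as TUBB2C, rose from 37.4% ± 0.0221 to 57.8% ± 0.147 and 54.2% ± 0.581. TUBB3 rose from 4.32% ± 0.333 to 10.7% ± 0.0997 and 9.09% ± 0.796. With canonical transcript lengths the share of TUBB3 was 11.4%, 27.1% and 23.4%, and that of TUBB 51.5%, 17.5% and 20.4%, in the same groups.

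Among the alpha tubulins, TUBA1B made up 66.7% ± 1.18 of the level in vehicle, 29.7% ± 0.332 in vorinostat and 31.1% ± 1.14 in the combination. TUBA1A went from 10% ± 0.811 to 37.6% ± 0.311 and 38.9% ± 2.77, and TUBA4A from 0.782% ± 0.0397 to 5.31% ± 0.00342 and 8.4% ± 0.816. In EC359, TUBB made up 52.2% ± 1.39 of the beta level and TUBA1B 70.4% ± 4.7 of the alpha level. With 2 libraries a group no exact permutation test of a share can pass, so these are descriptions.

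**Figure D3:**
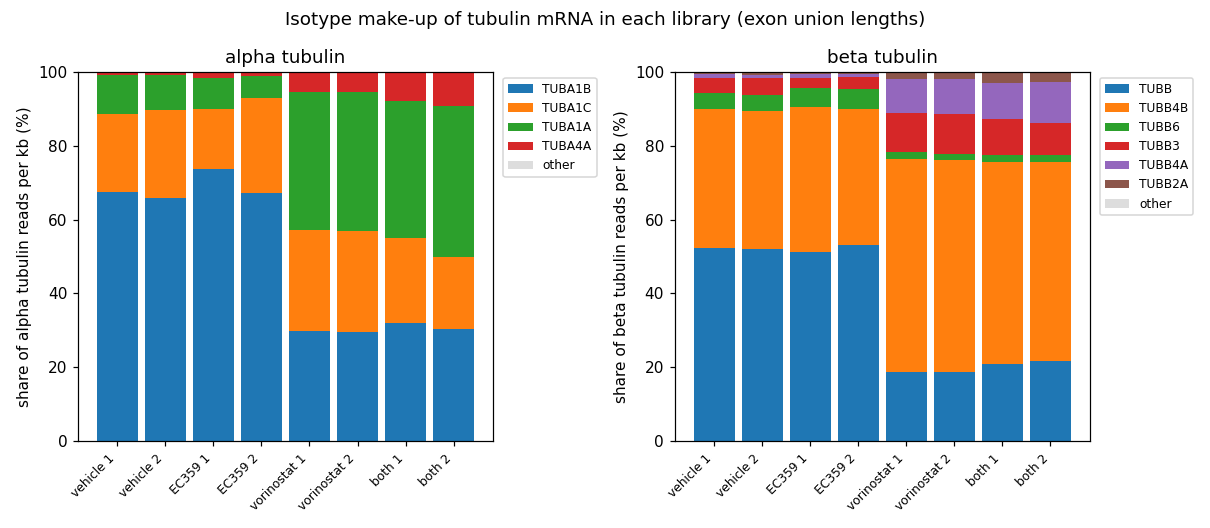
Stacked bars (0 to 100%) of the share of each gene in the summed alpha (left) or beta (right) tubulin level of each library, in counts per kb of exon union; "both" is the combination. TUBB and TUBA1B filled over 50% of their bars in the libraries without vorinostat and at most 31.9% in those with it.

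The genes share sequence, which bears on how reads were assigned. Reads were 50 bases long, and only reads aligned to a single place were counted. The share of 50-base windows of the canonical transcript with an exact copy elsewhere in GRCh37 was 64.6% for TUBB2A, 62.7% for TUBA1B, 54.9% for TUBB2B, 48.1% for TUBA1A, 30% for TUBG1, 27.4% for TUBA1C and 23.4% for TUBB. It was 9.23% for TUBB3, 5.55% for TUBA4A and 1.09% for TUBB6. The part of shared sequence in the changes, and in the levels and shares compared between genes, was not tested.

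Several members overlap another gene. TUBA4A overlaps STK16 on the opposite strand, TUBG1 overlaps RETREG3 on the opposite strand, and the TUBB3 exons also belong to a read-through gene that starts at MC1R. TUBA1A overlaps only GENCODE exons of TUBA1C on the opposite strand that lie outside the canonical TUBA1C transcript (49658865 to 49668383). Whether the RefSeq genes used for counting held those exons is not known. The strand setting of the counting was not given in the sources used here, so reads of such pairs may not be told apart. MC1R itself had a log2 fold change of -0.14 under vorinostat (SE 0.13, adjusted p = 0.376), and STK16 one of 0.12 (SE 0.23, adjusted p = 0.661).

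TUBB3 passed in EC359 against vehicle, at 1.81-fold lower (log2 -0.86, SE 0.11, adjusted p = 0.00072). It was the only member of 9 that passed. Over all genes 4.01% passed as lower and 3.81% as higher. No member passed as higher with edgeR or DESeq2, and the 4 members with an unadjusted p under 0.05 were all lower. The share of all genes at that unadjusted cut was not computed, so this count only describes the members. TUBA1A had a log2 difference of -0.70 (SE 0.15, adjusted p = 0.014) and TUBB one of -0.35 (SE 0.08, adjusted p = 0.019), and DESeq2 passed both. The libraries of 6 members lay below vehicle without overlap and those of 1 above it, where 28.8% and 24.6% of all genes did. The TUBB3 call was lost without vehicle replicate 2 (log2 -0.80, adjusted p = 0.013) and in a fit of these 4 libraries alone (log2 -0.83, adjusted p = 0.028). Without EC359 replicate 1, 3 members passed as lower, and without EC359 replicate 2, 4 passed as lower and 2 as higher.

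When EC359 was added to vorinostat, 3 of 9 members passed as lower and none as higher with edgeR, where 5.26% and 8.45% of all genes did. DESeq2 passed none as higher either, and the 5 members with an unadjusted p under 0.05 were all lower. For that cut, too, no share of all genes was computed. TUBA1C was 1.99-fold lower in the combination than in vorinostat (log2 -1.0, SE 0.20, adjusted p = 0.0064), TUBB3 1.62-fold lower (log2 -0.70, SE 0.10, adjusted p = 0.0017) and TUBA1B 1.49-fold lower (log2 -0.57, SE 0.08, adjusted p = 0.0011). TUBB2A had a log2 difference of 0.15 (95% interval -0.11 to 0.42) and TUBA4A one of 0.03 (95% interval -0.35 to 0.41). All 3 calls were lost when any of these 4 libraries was left out, with adjusted p between 0.01 and 0.018 for TUBA1B, 0.019 and 0.022 for TUBB3, and 0.04 and 0.06 for TUBA1C. A group then held 1 library, assumed to vary like the others.

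The interaction asks whether the log2 change under both drugs differs from the sum of the changes under each. No member passed with edgeR or DESeq2, where 2.1% of all genes passed with edgeR. An unadjusted p under 0.05, for which no share of all genes was computed, was found for 3 members. These were TUBA1B, at -0.41 (SE 0.11, adjusted p = 0.064), TUBB2A, at 0.54 (SE 0.17, adjusted p = 0.11), and TUBA1C, at -0.66 (SE 0.28, adjusted p = 0.2). For TUBB3 the EC359 difference was -0.86 without vorinostat and -0.70 with it, and the interaction was 0.16 (95% interval -0.17 to 0.49). In simulated counts with 1 spread for all genes, 34% of interactions of log2 size 1 and 94% of size 2 passed. Interactions of the size seen here can therefore be missed.

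**Figure D4:**
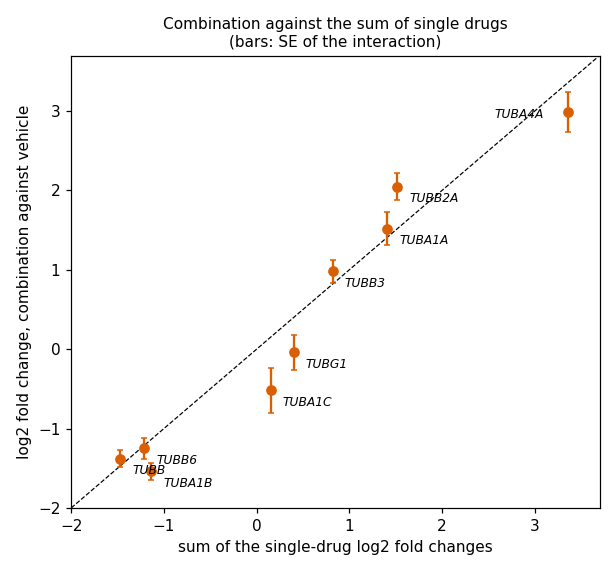
Log2 fold change of the combination against vehicle (y axis) against the sum of the log2 fold changes of the single drugs (x axis) for the 9 tested tubulin genes, with the dashed line of equality and bars for the SE of the interaction. TUBA1C and TUBG1 lie furthest below the line (-0.66 and -0.44) and TUBB2A furthest above it (0.54), and none of the 9 interactions passed.

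Of the 13 other tubulin genes, 6 could be tested, and 3 passed as higher under vorinostat with none lower, where 26.2% and 25.9% of all genes did. TUBB4A, a beta tubulin of brain that was listed as TUBB4, was at 38.8 and 33.6 CPM in vehicle, 32.8 and 18.6 CPM in EC359, 463 and 455 CPM in vorinostat, and 332 and 422 CPM in the combination. Its rise of 12.7-fold under vorinostat (log2 3.66, SE 0.24, adjusted p = 2.3e-06) exceeded the fold change of every member. TUBB4B rose 1.99-fold (log2 0.99, SE 0.09, adjusted p = 1.3e-05), and the second gamma tubulin TUBG2 rose 1.96-fold (log2 0.97, SE 0.16, adjusted p = 0.00057), from 7.51 and 6.54 CPM to 13.8 and 13.7 CPM. TUBE1, the epsilon tubulin of centrioles, was the only one that passed under EC359, at 31.7 and 21.1 CPM against 14 and 12 CPM in vehicle (log2 1.03, SE 0.20, adjusted p = 0.0079), and was at 12.8 and 13.1 CPM in the combination (interaction -1.04, SE 0.28, adjusted p = 0.062). TUBB4B and TUBE1 were named after their values were seen. So were TBCC, TBCE, ARL2, PFDN6, TUBGCP6, TTLL6, MAP7, STMN2 and STMN4 in the lists that follow.

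Newly made tubulin is folded by the CCT chaperonin and prefoldin and assembled into dimers by the cofactors TBCA to TBCE. Of 14 chaperone genes, 5 passed as lower under vorinostat and 7 under the combination, against 25.9% and 26.7% of all genes. PFDN6 alone passed as higher in each, against 26.2% and 29.7%. The CCT subunit CCT5 was at 675 and 650 CPM in vehicle, 329 and 328 CPM in vorinostat and 315 and 305 CPM in the combination (log2 -1.01, SE 0.12, adjusted p = 7e-05 under vorinostat). The prefoldin subunit VBP1 went from 144 and 158 CPM to 76.1 and 83.5 CPM under vorinostat (log2 -0.92, SE 0.17, adjusted p = 0.0011). The median log2 fold change of the chaperone list was -0.289 under vorinostat. Of 7 cofactor genes, TBCC (log2 0.70) and TBCE (log2 0.41) passed as higher under vorinostat, and none as lower. Under the combination these 2 passed as higher again, and ARL2 passed as lower (log2 -0.61). The higher counts were near the shares of all genes, 26.2% and 29.7%, while 25.9% and 26.7% of all genes passed as lower.

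TTC5 recognises nascent tubulin and with SCAPER and CNOT11 (listed as C2orf29) triggers decay of tubulin mRNA when free tubulin is in excess. None of these 3 genes passed in any comparison with edgeR. TTC5 was at 11.4 and 15.9 CPM in vehicle and 22.6 and 24.7 CPM in vorinostat (log2 0.80, SE 0.24, adjusted p = 0.015).

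TUBG1 works within the gamma-tubulin ring complex, whose other genes were measured beside it. Of the 12 listed, 6 passed as lower and 1 (TUBGCP6) as higher under vorinostat, and 8 and 1 under the combination, with median log2 fold changes of -0.536 and -1.0. Over all genes 25.9% passed as lower and 26.2% as higher under vorinostat, and 26.7% and 29.7% under the combination. PCNT, the pericentrin that anchors the ring at the centrosome, was at 123 and 110 CPM in vehicle, 35.6 and 37.3 CPM in vorinostat and 37.3 and 34.2 CPM in the combination (log2 -1.68, SE 0.11, adjusted p = 2.2e-06 under vorinostat). MZT2B and MZT2A, small subunits of the complex with near-identical sequences, had log2 fold changes of -2.16 (SE 0.41, adjusted p = 0.0012) and -1.78 (SE 0.31, adjusted p = 0.00079) under the combination.

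Of 19 tested enzymes that modify tubulin, 7 passed as higher and none as lower under vorinostat, and 6 and 2 under the combination. Over all genes 26.2% and 25.9% passed under vorinostat, and 29.7% and 26.7% under the combination. The count higher under the combination was thus near the background. Both higher counts include TTLL6, at 0 CPM in vehicle and EC359 and a mean of 1.72 CPM in vorinostat. TTLL6 passed the filter only through libraries with vorinostat and could not have come out lower. TTLL7, a beta tubulin polyglutamylase, was at 9.44 and 6.82 CPM in vehicle and 30.3 and 32 CPM in vorinostat (log2 1.94, SE 0.20, adjusted p = 2.9e-05). AGTPBP1, which removes glutamates, was at 53.5 and 50 CPM in vehicle and 103 and 104 CPM in vorinostat (log2 1.0, SE 0.09, adjusted p = 1.8e-05). VASH2, which removes the final tyrosine of alpha tubulin, was at 10.5 and 9.3 CPM in vehicle, 4.95 and 5.33 CPM in EC359, 15.7 and 15.6 CPM in vorinostat and 22.8 and 23.3 CPM in the combination, with an interaction of 1.5 (SE 0.20, adjusted p = 0.0032).

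HDAC6, the deacetylase of alpha tubulin and itself a target of vorinostat, was at 53.3 and 51.9 CPM in vehicle and 60.5 and 59.3 CPM in vorinostat (log2 0.19, SE 0.12, adjusted p = 0.19). It was at 44.5 and 35.9 CPM in the combination, lower than in vorinostat (log2 -0.58, SE 0.12, adjusted p = 0.0074). In EC359 alone HDAC6 was at 38.1 and 36 CPM, with a similar difference from vehicle that did not pass (log2 -0.51, SE 0.12, adjusted p = 0.02). The acetyltransferase ATAT1 lay between 10.9 and 21.1 CPM and the tyrosine ligase TTL between 97 and 140 CPM, and neither passed in any comparison.

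Other gene groups also changed under these drugs, and their part in these results was not tested. Of 10 mitotic genes, 9 passed as lower under vorinostat and 10 under the combination, against 25.9% and 26.7% of all genes. The summed level of the mitotic list was 4391 to 4675 CPM in vehicle, 3419 to 4151 CPM in EC359, 2525 to 2568 CPM in vorinostat and 1803 to 1863 CPM in the combination. MKI67 had a log2 fold change of -1.70 (SE 0.23, adjusted p = 0.00017) under vorinostat. PLK1 and CCNB1 had log2 fold changes of -1.22 and -0.95 there.

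Of the 7 neuronal genes that could be tested among 12, 5 passed as higher under vorinostat and under the combination, against 26.2% and 29.7% of all genes. The summed level of the neuronal list was 244 to 245 CPM in vehicle, 339 to 372 CPM in EC359, 576 to 591 CPM in vorinostat and 795 to 801 CPM in the combination. The synaptic vesicle gene SYP went from 6 and 5.33 CPM to 83.8 and 83.5 CPM under vorinostat, and the intermediate filament gene INA from 32.3 and 29.6 CPM to 89.4 and 83.2 CPM. UCHL1, an abundant ubiquitin hydrolase of neurons, went from 96.8 and 99.4 CPM to 189 and 190 CPM. SYP was at 59.7 and 61.2 CPM in the combination, and INA at 162 and 187 CPM. The 5 genes of the list that did not pass the filter on low counts, GAP43, NEFL, NEFM, ELAVL3 and ELAVL4, reached at most 0.409 CPM in any library. In bulk RNA, fewer cells of a kind and less RNA per cell cannot be told apart.

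The melanocyte list (MITF, MLANA, PMEL and TYR) summed to 11.9 to 12.2 CPM in vehicle, 8.62 to 10.8 CPM in EC359, 216 to 217 CPM in vorinostat and 158 to 192 CPM in the combination. PMEL reached 187 CPM, while MLANA and TYR were at 0 in all libraries. The epithelial list summed to 2.55 to 2.94 CPM in vehicle, 5.69 to 7.2 CPM in EC359, 11.8 to 21.9 CPM in vorinostat and 2.56 to 21.5 CPM in the combination. All 4 epithelial genes were higher in both vorinostat libraries than in vehicle, as 45.3% of all genes were. Of these 4, only EPCAM passed there (log2 4.22, SE 0.99, adjusted p = 0.0045), where 26.2% of all genes passed as higher. EPCAM lay between 0.14 and 4.27 CPM over all libraries, with its lowest value near the floor of 3 counts. The mesenchymal list summed to 8013 to 8567 CPM in vehicle, 7513 to 8242 CPM in EC359, 8844 to 8912 CPM in vorinostat and 14713 to 15042 CPM in the combination. Its 5 genes moved both ways. Under vorinostat 1 passed as higher and 2 as lower, against 26.2% and 25.9% of all genes, with a median log2 fold change of -0.416. Under the combination 3 passed as higher and 1 as lower, against 29.7% and 26.7%, with a median of 0.526.

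**Figure D5:**
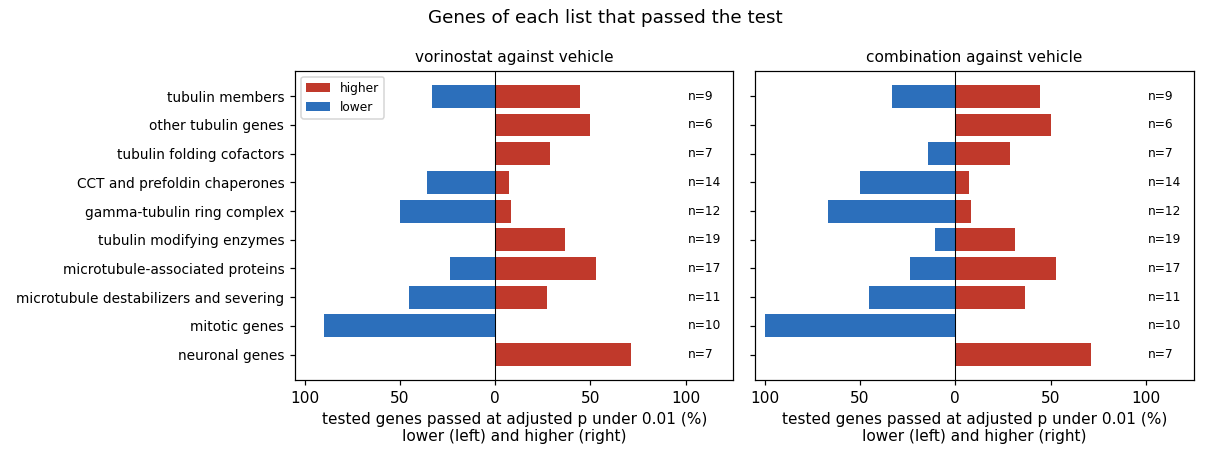
Percent of the tested genes of each list that passed at an adjusted p under 0.01 as higher (red, to the right) or lower (blue, to the left) in vorinostat and in the combination against vehicle, with n the number tested. Tubulin members moved both ways (4 higher, 3 lower of 9), the other tubulin genes only higher (3 of 6), and mitotic genes only lower (9 of 10 under vorinostat and 10 of 10 under the combination). Over all genes, not drawn, 26.2% passed as higher and 25.9% as lower under vorinostat, and 29.7% and 26.7% under the combination.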

How the data were processed

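RNA-seq libraries of BT-549 cells (8 libraries, 2 for each of 4 groups) were analysed from the raw counts per gene symbol that the authors deposited. Per the labels and the study's methods, single-end reads of 50 bp were mapped by the authors with TopHat2 (2.0.8b in the submitters' processing notes) on hg19, and HTSeq counted those falling on RefSeq genes, without normalization. The 5 HTSeq summary lines were left out, and 0.649% to 0.85% of the reads aligned to a single place were ambiguous between genes.

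Genes were kept with filterByExpr (13694 of 23228) and scaled by TMM (edgeR 4.0.16, R 4.3.3). All 8 libraries entered a single quasi-likelihood fit of the 4 group means, with Benjamini-Hochberg adjustment over every tested gene. A gene passed at an adjusted p under 0.01 and was called if its absolute log2 fold change also exceeded 1. SE was obtained from the fold change and its F statistic. The floor is 3 counts (0.124 to 0.154 CPM). The procedure was tested on simulated data.

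Gene models came from GENCODE on GRCh37, the build hg19 shares, and upstream windows from RefSeq (GRCh38.p14), placed on GRCh37 by exact match. All 10 members matched by symbol, and all had an upstream window.

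Named genes were the 10 members and, per list, at most 3 genes called under vorinostat or the combination with a mean log2 CPM of at least 3 and the largest change in the combination, plus HDAC6, ATAT1, TTL and TTC5. TUBB4B, TUBE1, TBCC, TBCE, ARL2, PFDN6, TUBGCP6, TTLL6, MAP7, STMN2, STMN4, EPCAM and the overlapping genes MC1R and STK16 fall outside this rule. They were named after their values were seen. The genes most like a member were the 5 with the smallest root mean square difference in centred log2 CPM. Members, lists and motifs were chosen with earlier results of these data known. The results were recomputed with DESeq2 1.42.0, with RLE or total-count scaling, no filter, another threshold, fits of 4 libraries, a replicate block, other transcript lengths and leaving out each library. Figures were drawn with matplotlib 3.10.9 in Python 3.11.15.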

Additional observations from a re-analysis of the deposited data

How the results depend on the processing

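Under vorinostat and under the combination against vehicle, 4 members passed as higher and 3 as lower when any library was left out. With TUBA1C added, 5 passed as higher under vorinostat in the fit of 4 libraries, and 4 as lower under the combination in that fit, with DESeq2 or at an adjusted p under 0.05. The count lower under EC359 (1) was 2 with total counts or no filter, 3 at an adjusted p under 0.05 or with DESeq2, 0 in the fit of 4 libraries, and 0 to 4 with a library left out, while the count higher (0) was 0 to 2. The count lower in the combination against vorinostat (3) was 5 at an adjusted p under 0.05 or in the fit of 4 libraries, and 0 with any library left out. The count of negative interactions (0) was 0 to 2 with a library left out. The causes were not tested.

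Small values changed sign. TUBA4A in the combination against vorinostat was -0.0069 with RLE, -0.0593 with total counts, -0.0103 without a filter, -0.00755 with DESeq2, and -0.178 to 0.138 with a library left out. With a library left out, TUBG1 ranged from -0.0388 to 0.456 under EC359 and from -0.196 to 0.016 under the combination, and the interactions of TUBA1A, TUBB and TUBB6 from -0.116 to 0.377, -0.0544 to 0.122 and -0.141 to 0.0258.

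Same-numbered libraries did not deviate together (correlations of deviations -0.173 to 0.231), so the numbers were not taken as pairs. The replicate block changed no member's call (TUBB3 under EC359, log2 -0.859, adjusted p = 0.0014). A crossed replicate block, added after seeing the data, gave 3 lower under EC359, 5 higher under vorinostat and 4 lower under the combination. The canonical transcript length was also added then, and gave shares such as 71% for TUBA1B and 11.1% for TUBA1A in vehicle.

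Over all genes, 502 were called by both thresholds in EC359 against vehicle and 233 in the fit of those 4 libraries. For the interaction, 215 met the same rule, 341 with DESeq2 and 426 at an adjusted p under 0.05.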

Other observations

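Of 17 tested genes that encode microtubule-associated proteins, 9 passed as higher and 4 as lower under vorinostat, where 26.2% and 25.9% of all genes did, so the count of lower genes was near the background. Under the combination 9 and 4 passed, against 29.7% and 26.7%. The higher genes include MAP7, whose mean of 0.165 CPM in vehicle was close to the floor. MAP1A, a neuronal microtubule-associated protein, was at 9.63 and 10.7 CPM in vehicle, 6.31 and 4.26 CPM in EC359, 94 and 102 CPM in vorinostat and 96.2 and 107 CPM in the combination (log2 3.27, SE 0.16, adjusted p = 5.9e-07 under vorinostat, edgeR's quasi-likelihood test). CLIP2, a plus-end linker, went from 15.3 and 14.9 CPM to 80.3 and 73.5 CPM under vorinostat (log2 2.34, SE 0.11). MAPRE3, an end-binding protein, went from 3.59 and 5.28 CPM to 35.4 and 34.4 CPM (log2 2.98, SE 0.20).

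Of 11 genes that destabilise or sever microtubules, 3 passed as higher and 5 as lower under vorinostat, and 4 and 5 under the combination, against the same shares of all genes. Both higher counts include STMN2 and STMN4. These lay below the floor in vehicle, with means of 0.0942 and 0.0467 CPM, and could hardly have come out lower. The depolymerising kinesins KIF2A and KIF2C had log2 fold changes of -1.23 (SE 0.12) and -1.22 (SE 0.12) under the combination, and the severing enzyme FIGN one of -1.40 (SE 0.18).

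Among tested genes outside the tubulin lists, those whose pattern over the 8 libraries was most like TUBA1B were FLII, CUL4A, ARHGEF40, KIF4A and IMMT, with root mean square differences of 0.064 to 0.074 on the centred log2 CPM scale. For TUBB they were C6orf168, FAM171A1, B4GALT1, TRAM2 and GINS1 (0.057 to 0.082), and for TUBG1 GSK3A, PRCC, CHMP4B, DNAJC21 and HSP90AB1 (0.061 to 0.079).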
